A study of Mus musculus with 8 samples.

Results

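miR-203-3p and miR-205-5p are the main mature products of a pair of mouse microRNA genes that are known above all from the skin. Both were found by name in the plasma and the cerebrospinal fluid (CSF) tables of an exosomal small RNA experiment, 2 of the 1960 mature miRNAs listed in both tables. The exosomes, small membrane vesicles shed by cells, came from adult wild-type females and males. Baseline mice had no treatment, and the others were given DOCA-salt, in which the steroid deoxycorticosterone acetate is combined with a salt load to make rodents hypertensive. There was 1 library for every fluid in each sex and treatment, hence 4 of plasma and 4 of CSF, all labelled batch 1. The submitters' design text states 8 mice and does not say which mice, or pools of mice, gave a library.

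MicroRNAs are short RNAs that pair with messenger RNAs, mostly through the seed, bases 2 to 8 of the mature strand, and lower the output of the paired messages. In skin, miR-203 appears as keratinocytes leave the basal layer, where it represses the stem cell factor p63 and promotes exit from the cell cycle. miR-205 is abundant in basal keratinocytes and other stratified and glandular epithelia, and with the miR-200 family it restrains the ZEB factors that drive epithelial cells toward a mesenchymal state. No keratinocyte was sampled here, so the name of the pair refers to where these miRNAs are best known and not to a source of the vesicles. Levels in a fluid are bulk values, and fewer vesicles of a kind and less RNA per vesicle cannot be told apart.

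The mature strands show that miR-203-3p and miR-205-5p are unrelated in sequence, each with its seed in capitals (RefSeq, GRCm38.p6).
miR-203-3p: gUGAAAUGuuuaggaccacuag
miR-205-5p: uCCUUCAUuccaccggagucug
Of 1679 mature mouse miRNAs in that table, 1 carried the seed UGAAAUG and 1 the seed CCUUCAU, in each case the named strand itself. Neither thus belongs to a wider seed family in that table. miR-203-3p lies on chromosome 12 (112130927 to 112130948, plus strand), in the miRNA gene Mir203, with no other GENCODE M21 gene around it. miR-205-5p lies on chromosome 1 (193507503 to 193507524, minus strand), in Mir205, within an exon of the lincRNA 4631405K08Rik on the same strand.

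The hairpins are shown because each gives a lesser strand that was also counted, with both mature strands in capitals.
Mir203: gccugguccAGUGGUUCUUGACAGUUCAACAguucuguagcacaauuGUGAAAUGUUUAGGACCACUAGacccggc
Mir205: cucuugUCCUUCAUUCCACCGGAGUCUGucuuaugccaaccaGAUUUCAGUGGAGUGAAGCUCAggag
miR-203-3p comes from the 3′ side of its hairpin and miR-205-5p from the 5′ side. The opposite genomic strand of Mir203 is annotated to give miR-203b, and its miR-203b-5p is shown because all 20 of its bases are the perfect complement of miR-203-3p (seed in capitals).
miR-203b-5p: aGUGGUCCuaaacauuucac
The sources used here do not state whether reads were aligned with respect to strand, so reads of miR-203-3p and miR-203b-5p may not have been told apart in full.

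Libraries held 158572 to 337240 unique molecular identifiers (UMIs, counted molecules) in plasma and 237878 to 1082504 in CSF. The muscle list of 7 miRNAs, all detected in every library, took 0.290% to 1.5% of UMIs in plasma and 36.3% to 56.6% in CSF. The deposited CPM (UMIs scaled to a fixed library total) of any miRNA in CSF is thus a share of a total to which muscle miRNAs contributed that much. TMM scaling (trimmed mean of M-values) instead sets libraries against the bulk of their miRNAs. The neuron list of 8, detected in full in every library, took 0.201% to 0.339% in CSF and 0.173% to 0.325% in plasma. On the TMM scale 3 of its 6 tested members were called higher in CSF and 0 lower (edgeR, median log2 fold change 1.28). Of all tested miRNAs 26.2% were called higher and 25.6% lower, 51.7% in either direction, so calls were common. The liver list of 3 took 0.0552% to 0.129% in CSF and 0.238% to 0.436% in plasma. Both scales are given below. Intervals are 95% exact intervals and cover counting error only. With 1 library per combination, no p-value rests on the spread among mice of a combination. Between the fluids, the spread is that among libraries of different sex or treatment. In fits with sex and treatment as terms, it is what those terms leave over, largely borrowed across miRNAs.

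Both miRNAs were well above the typical listed miRNA in every library. In plasma, miR-203-3p had 66 UMIs in the baseline female (236 CPM, interval 182 to 300.0), 110 in the DOCA-salt female (326 CPM, 268 to 393), 62 in the baseline male (391 CPM, 299.8 to 501) and 161 in the DOCA-salt male (528 CPM, 449.9 to 617). Both DOCA-salt libraries stood above the baseline library of the same sex, and both males above the female of the same treatment. In CSF it had 134 UMIs in the baseline female (563 CPM, 472 to 667), 60 in the DOCA-salt female (198 CPM, 151 to 254), 329 in the baseline male (437 CPM, 391 to 487) and 286 in the DOCA-salt male (264 CPM, 234 to 297). Here both baseline libraries stood above both DOCA-salt libraries. How many of all miRNAs order their libraries in these ways was not counted, so the orders are not shown to be unusual. By share of UMIs the plasma range lay within the CSF range, with means of 370.3 ± 123 CPM in plasma and 365 ± 166 CPM in CSF (SD, n = 4 unlike libraries each).

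miR-205-5p had the lower count of the pair in all 8 libraries, though only just in the baseline female of plasma. In plasma it had 64 UMIs in the baseline female (229 CPM, interval 176 to 292), 79 in the DOCA-salt female (234 CPM, 185 to 292), 25 in the baseline male (158 CPM, 102 to 233) and 48 in the DOCA-salt male (158 CPM, 116 to 209). Both females stood above both males, and the intervals of baseline and DOCA-salt overlapped within each sex. In CSF it had 32 UMIs in the baseline female (135 CPM, 92.0 to 189.9), 28 in the DOCA-salt female (92.2 CPM, 61.3 to 133), 75 in the baseline male (99.6 CPM, 78.3 to 125) and 42 in the DOCA-salt male (38.8 CPM, 28.0 to 52.4). All 4 CSF shares lay below all 4 plasma shares, and the DOCA-salt male of CSF was the lowest. Means were 195 ± 42.7 CPM in plasma and 91.3 ± 39.6 CPM in CSF (SD, n = 4). A lower share in CSF was common. When scaled by all UMIs, 734 of 1146 tested miRNAs passed as lower in CSF (edgeR), with a median log2 fold change of -1.72. How many miRNAs had shares without overlap, between the fluids or between the sexes in plasma, was not counted.

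**Figure D1:**
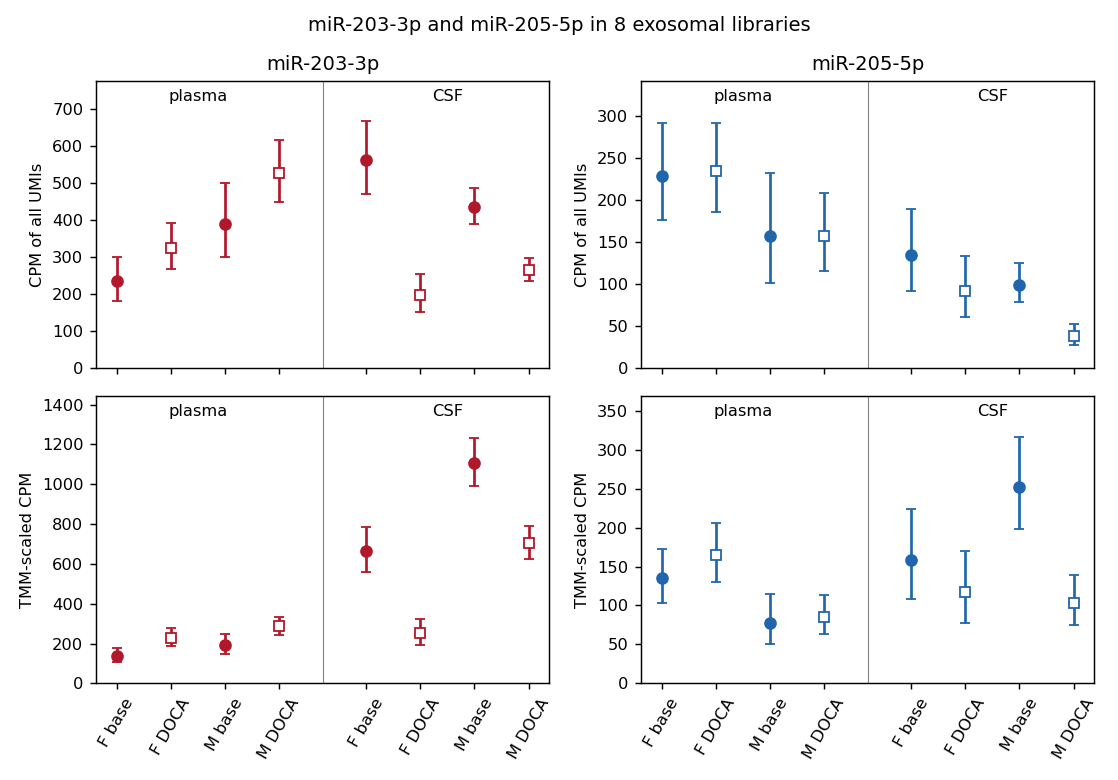
Levels of miR-203-3p (left) and miR-205-5p (right) in the 4 plasma and 4 CSF libraries, as CPM of all UMIs (top) and as TMM-scaled CPM (bottom). Filled circles are baseline and open squares DOCA-salt libraries, F and M are female and male, and bars are 95% exact counting intervals. miR-203-3p spans like shares in both fluids, from 198 to 563 CPM in CSF and 236 to 528 in plasma, but on the TMM scale the baseline CSF libraries and the DOCA-salt CSF male lie above all plasma libraries.

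The position of miR-203-3p within a library does not depend on scaling. It ranked between 95 and 223 by UMI count in CSF and between 177 and 278 in plasma, where the DOCA-salt male was the highest. Its count was 8.57 to 36.6 times that of the median listed miRNA in CSF and 4.12 to 8.47 times in plasma, ranges that nearly met. The lowest CSF value was that of the DOCA-salt female and the highest plasma value that of the DOCA-salt male. miR-205-5p ranked between 209 and 391 in CSF and between 273 and 471 in plasma. It stood at 3.82 to 8.33 times the median miRNA in CSF and 2.27 to 5.64 times in plasma, so that the fluids overlapped.

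CSF was compared with plasma to ask which of the vesicle miRNAs distinguish the fluids. On the TMM scale miR-203-3p stood at 139, 229.7, 193 and 287 CPM in the plasma libraries of the baseline female, DOCA-salt female, baseline male and DOCA-salt male. In CSF the same order gave 665, 252, 1106 and 703 CPM, so 3 of 4 CSF libraries lay above every plasma library and the DOCA-salt female lay among them. miR-203-3p was 3.21-fold higher in CSF, a log2 fold change of 1.68 ± 0.43 (SE, edgeR quasi-likelihood test over all 1146 miRNAs tested, adjusted p = 0.00323). It was higher in CSF in 4 of 4 pairs of the same sex and treatment, by 4.78-fold in baseline females (interval 3.54 to 6.52), 5.72-fold in baseline males (4.35 to 7.63) and 2.45-fold in DOCA-salt males (2.01 to 2.99). The pair of DOCA-salt females, at 1.10-fold (0.786 to 1.51), did not differ beyond counting error.

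miR-205-5p did not pass on the TMM scale. Its TMM-scaled levels were 135, 165, 77.9 and 85.5 CPM in plasma and 159, 117, 252 and 103 CPM in CSF, in the same order. The ranges overlapped, with the baseline male of CSF above all others. Its log2 fold change was 0.44 ± 0.38 (adjusted p = 0.349, 4 libraries against 4), and 3 of 4 pairs were higher in CSF. Thus 1 of the 2 miRNAs passed, where 51.7% of all tested miRNAs passed (26.2% as higher in CSF and 25.6% as lower), so a call of this kind was common.

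Both results depend on the scale. Over all tested miRNAs the median log2 fold change was -0.12 with TMM and -1.72 with total-count scaling, which divides by all UMIs, muscle miRNAs included. With total-count scaling miR-203-3p stood at -0.044 ± 0.46 (edgeR, adjusted p = 0.934), above the shifted median. That value near 0 averages pairs whose shares differed in opposite directions. miR-205-5p stood at -1.14 and passed as lower in CSF (adjusted p = 0.0370), still less low than the median miRNA. Leaving the 7 muscle miRNAs out before TMM gave 1.68 for miR-203-3p (adjusted p = 0.00352) and 0.43 for miR-205-5p. In CSF the leukocyte list of 6 miRNAs took 0.478% to 0.781% of UMIs against 3.04% to 3.47% in plasma, and the erythrocyte list of 6 took 2.10% to 5.08% against 11.8% to 20.3%. On the TMM scale 0 leukocyte miRNAs were higher and 3 of 6 lower in CSF, while 2 erythrocyte miRNAs were higher, 1 was lower and 3 did not pass. Of all tested miRNAs 51.7% passed in that comparison. The part of these lists in the difference of the members was not tested.

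The ratio of the pair within a library is free of scaling. In plasma there were 1.03 UMIs of miR-203-3p for each of miR-205-5p in the baseline female (interval 0.720 to 1.48), 1.39 in the DOCA-salt female (1.03 to 1.88), 2.48 in the baseline male (1.54 to 4.12) and 3.35 in the DOCA-salt male (2.42 to 4.73). In CSF the ratio was 4.19 in the baseline female (2.83 to 6.37), 2.14 in the DOCA-salt female (1.35 to 3.49), 4.39 in the baseline male (3.40 to 5.72) and 6.81 in the DOCA-salt male (4.91 to 9.65). Within each treatment and fluid the male was above the female, by less than counting error in the baseline CSF pair, and 3 of 4 CSF libraries were above every plasma library. The ratio was on average 2.17-fold higher in CSF (mean log2 ratio 2.0 ± 0.69 in CSF and 0.89 ± 0.77 in plasma, SD, n = 4), which did not pass (two-sided exact permutation test, p = 0.0857; the smallest p the design allows is 0.029).

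**Figure D2:**
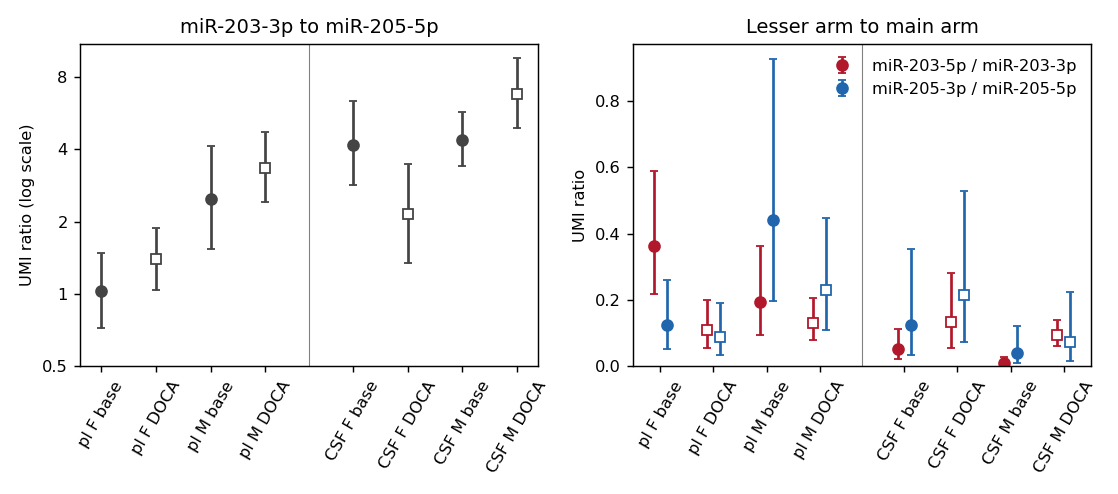
UMI ratios within each library. Left, miR-203-3p to miR-205-5p on a log axis, from 1.03 to 3.35 in plasma (pl) and 2.14 to 6.81 in CSF. Right, the lesser arm of each hairpin to its main arm, on a linear axis. Filled circles are baseline and open squares DOCA-salt, F and M are female and male, bars are 95% exact intervals, and the main arm exceeds the lesser arm in all 8 libraries for both hairpins.

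In both hairpins the strand named as a member was the main one in every library. miR-203-5p had 12 to 24 UMIs in plasma and 3 to 27 in CSF, or 0.109 to 0.364 for each miR-203-3p in plasma and 0.00912 to 0.133 in CSF. The lowest ratio, in the baseline male of CSF, rests on 3 UMIs of miR-203-5p against 329. miR-205-3p had 7 to 11 UMIs in plasma and 3 to 6 in CSF, or 0.0886 to 0.440 and 0.0400 to 0.214 for each miR-205-5p. In plasma the lesser strands stood near the typical miRNA of the library (0.857 to 1.5 times the median for miR-203-5p, 0.5 to 1 times for miR-205-3p). miR-203-5p did not follow its partner strand between the fluids, with a log2 fold change of 0.00 ± 0.48 (adjusted p = 0.995); whether the strands differ from each other was not tested.

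The antisense miR-203b-5p had 18 to 22 UMIs in plasma and 4 to 22 in CSF, or 0.112 to 0.333 for each miR-203-3p in plasma and 0.0365 to 0.0769 in CSF, ranges that did not overlap. Its log2 fold change between the fluids was -0.14 ± 0.38 (adjusted p = 0.777). miR-203b-3p, at 1 to 8 UMIs a library, and miR-205-3p did not pass the filter on low counts in that comparison.

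The other epithelial miRNAs give the setting of the pair. The list held 10 besides the members: the miR-200 family (miR-200a-3p, miR-200b-3p, miR-200c-3p, miR-141-3p, miR-429-3p), the sensory-epithelium cluster (miR-182-5p, miR-183-5p, miR-96-5p), miR-31-5p of skin and miR-184-3p of the corneal epithelium. It was chosen with earlier results of these data known. Of 9 tested between the fluids, 1 was higher and 6 were lower in CSF, with a median log2 fold change of -3.17 beside -0.12 for all tested miRNAs. Of all tested miRNAs 26.2% passed as higher and 25.6% as lower. The 5 miR-200 family members were all lower in CSF, from -3.17 ± 0.51 for miR-429-3p to -5.76 ± 0.69 for miR-200a-3p (adjusted p = 2.91e-06). miR-31-5p, named after its values were seen, was lower at -1.78 ± 0.44 (adjusted p = 0.00255), and miR-183-5p was higher at 7.83 ± 0.78. miR-184-3p (0.06 ± 0.35) and miR-182-5p (-0.99 ± 0.50) did not pass. miR-31-5p and the miR-200 family except miR-200c-3p did not pass the filter on low counts within CSF. They were tested between the fluids through their plasma counts, so their direction was largely fixed in advance.

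On the TMM scale miR-203-3p was above plasma in CSF, while the miR-200 family, which miR-205 is known to share targets with, was below it. For all of that family but miR-200c-3p the direction was largely fixed in advance by the filter on low counts. In counts, miR-200a-3p had 1 to 4 UMIs and miR-141-3p 1 to 10 in the CSF libraries, where miR-203-3p had 60 to 329 and miR-205-5p 28 to 75. In plasma miR-200a-3p had 75 to 551 UMIs and exceeded miR-203-3p in 3 of 4 libraries, the DOCA-salt female being the exception. With total-count scaling 8 of the 9 were lower and 1 higher, with a median of -4.83. Of all 1146 tested miRNAs 734 were lower and 63 higher with that scaling. With DESeq2's size factors 6 of the 9 were lower and 1 higher, beside 269 lower and 316 higher of all 1146. With total-count scaling miR-203-3p stood at -0.044 and did not pass, with pairs in both directions, while the median of all tested miRNAs was -1.72.

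**Figure D3:**
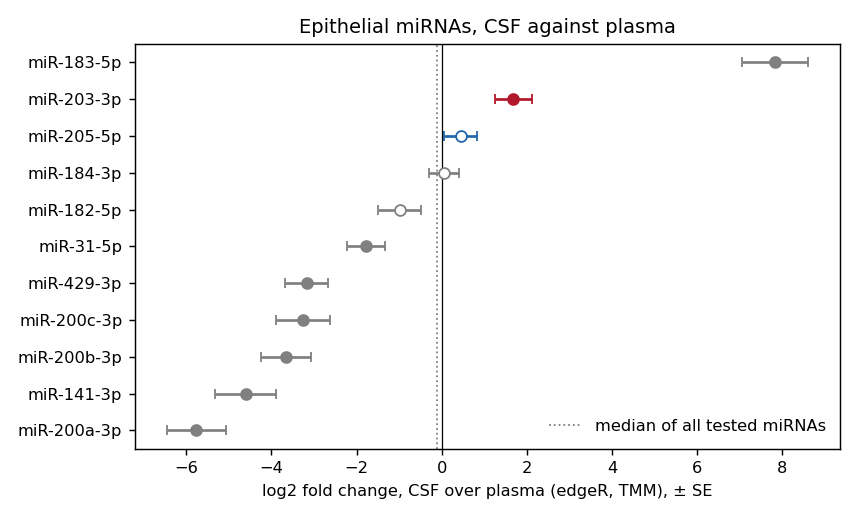
Log2 fold change of CSF over plasma for the 11 epithelial miRNAs tested, with SE (edgeR, TMM, 4 libraries against 4). Filled points passed the adjusted threshold, red is miR-203-3p, blue miR-205-5p, and the dotted line is the median of all tested miRNAs (-0.12). miR-203-3p lies at 1.68 and miR-205-5p at 0.44, between miR-183-5p at 7.83 and the miR-200 family at -3.17 and below.

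DOCA-salt was compared with baseline in each fluid to ask what the hypertensive treatment changes. In plasma miR-203-3p was higher after DOCA-salt in both sexes, 1.65-fold in the female pair (interval 1.21 to 2.28) and 1.49-fold in the male pair (1.10 to 2.02), on the TMM scale. The fit with sex as a term gave a log2 fold change of 0.61 ± 0.48, which did not pass (edgeR, adjusted p = 0.627). miR-205-5p stood at 1.22-fold in the female pair (0.869 to 1.73) and 1.10-fold in the male pair (0.664 to 1.86), within counting error, and at 0.18 ± 0.45 in the fit (adjusted p = 0.909). Of the 2 miRNAs 0 passed, where 1.07% of all tested miRNAs passed (0.286% as higher and 0.787% as lower). DESeq2's test passed 1 miRNA in all and neither member, and 192 miRNAs had an unadjusted p under 0.05 in edgeR.

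In CSF the direction was the opposite. miR-203-3p was lower after DOCA-salt in both sexes, at 0.378 of baseline in the female pair (interval 0.274 to 0.517) and 0.636 in the male pair (0.541 to 0.747). miR-205-5p stood at 0.740 in the female pair (0.429 to 1.27), within counting error, and at 0.410 in the male pair (0.274 to 0.606). In the fit miR-203-3p stood at -1.03 ± 0.51 (edgeR, adjusted p = 0.575, unadjusted p = 0.0453) and miR-205-5p at -0.89 ± 0.52 (adjusted p = 0.621). The lesser strand miR-203-5p, at 3 to 27 UMIs in CSF, stood the other way at 1.29 ± 0.61 (adjusted p = 0.499, unadjusted p = 0.0328). Neither member passed, where 0.193% of all tested miRNAs passed (0.0965% in each direction). Scaling by total count left the directions in place, at -1.11 and -0.97. Fits with 1 library left out had no sex term, so their values mix the sex difference with that of DOCA-salt. Without the DOCA-salt female miR-203-3p stood at -0.30, without the baseline male at -0.39 and without the DOCA-salt male at -1.88, with miR-205-5p at -0.48 without the baseline male. The pairs of miR-203-3p themselves stood at -1.40 in females and -0.65 in males on the log2 scale.

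**Figure D4:**
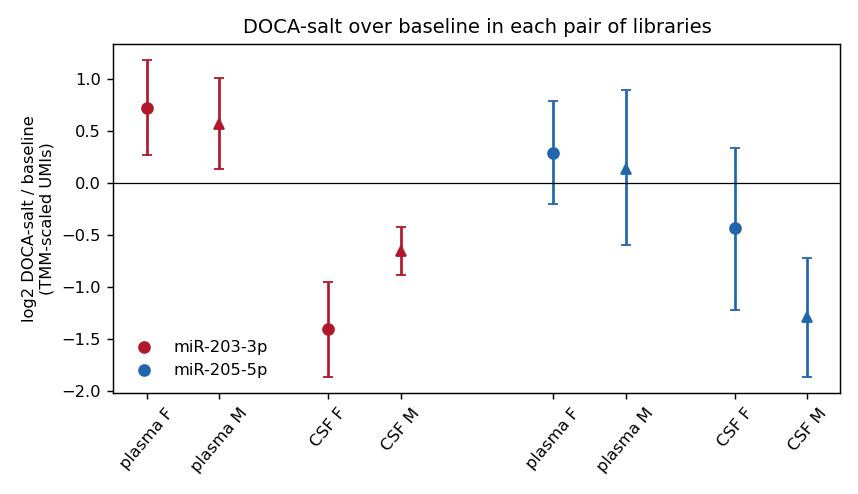
Log2 ratio of DOCA-salt to baseline for each pair of libraries of the same fluid and sex, from TMM-scaled UMIs, with 95% exact counting intervals (circles female, triangles male). miR-203-3p (red) lies above 0 in both plasma pairs and below 0 in both CSF pairs, and miR-205-5p (blue) lies close to 0 in plasma and below 0 in CSF.

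Whether DOCA-salt acted differently in the fluids was tested as an interaction. It was -1.70 ± 0.64 on the log2 scale for miR-203-3p (unadjusted p = 0.0123, edgeR adjusted p = 0.532, rank 33 of 1465 miRNAs by p) and -1.15 ± 0.66 for miR-205-5p (adjusted p = 0.673). Neither passed, and 0% of all tested miRNAs did by edgeR, while 113 had an unadjusted p under 0.05 and DESeq2's test passed 1. The value for miR-203-3p kept its sign in 14 of 14 alternatives, from -2.0 to -1.24. miR-203-5p stood at 1.77 ± 0.88 in the same test (adjusted p = 0.631). The value for miR-205-5p kept its sign too, from -1.45 to -0.60, the last without either male library of CSF. Where 1 library was left out, the fluid it came from kept 1 complete pair, and its DOCA-salt difference rested on that pair. Those fits repeat the pair ratios, whose signs agreed within each fluid, and are no separate check of the sign.

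Other epithelial miRNAs are given beside these values. In plasma 0 of 10 passed for DOCA-salt, with a median of 1.16 against -0.03 for all tested miRNAs, where miR-203-3p stood at 0.61 and miR-205-5p at 0.18. The list's median was 0.56 in the female pair, with miR-203-3p at 0.72 and miR-205-5p at 0.29, and 1.72 in the male pair, with the members at 0.57 and 0.13. The male pair holds the DOCA-salt male, whose epithelial share stood apart from the other plasma libraries. miR-200c-3p was at 1.51 ± 0.53 and miR-31-5p at 0.94 ± 0.42. In CSF 4 of the 10 could be tested and 0 passed, with a median of -0.43 against 0.01, miR-200c-3p at -0.92 ± 0.55 and miR-183-5p at -0.72 ± 0.48. The summed share of the 12 epithelial miRNAs, most of it miR-183-5p in CSF, went from 8.28% to 5.18% in CSF females and from 1.85% to 0.985% in CSF males, and from 0.229% to 0.269% and from 0.378% to 1.13% in plasma females and males. The muscle list went from 38.7% to 36.3% in CSF females and from 56.6% to 49.1% in CSF males; with the muscle list left out before TMM, DOCA-salt in CSF stood at -1.06 for miR-203-3p and -0.92 for miR-205-5p, and the interactions at -1.68 and -1.13.

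Males were compared with females in the same fits. In plasma miR-205-5p was lower in males, at 0.578 of the female level in the baseline pair (interval 0.349 to 0.931) and 0.518 in the DOCA-salt pair (0.354 to 0.751). Its log2 fold change of -0.91 ± 0.46 did not pass (edgeR, adjusted p = 0.646). miR-203-3p lay the other way, 1.39-fold (0.967 to 2.0) and 1.25-fold (0.974 to 1.61) of the female level, within counting error, and at 0.35 ± 0.48 (adjusted p = 0.914). By share of UMIs miR-205-5p was at 0.689 (0.416 to 1.11) and 0.672 (0.460 to 0.975), and miR-203-3p at 1.66-fold (1.15 to 2.38) and 1.62-fold (1.26 to 2.08), both past counting error. Of all tested miRNAs 0.143% passed, all as higher in males, and neither member. The epithelial list had a median of 1.27 toward males in plasma with 0 of 10 past the threshold. That median was 0.60 in the baseline pair and 1.90 in the DOCA-salt pair, which holds the DOCA-salt male that stood apart, and miR-205-5p was at -0.79 and -0.95 in those pairs.

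In CSF, where the male libraries held more UMIs than the female ones, the sex difference hung on scaling. On the TMM scale miR-203-3p was 1.66-fold higher in the baseline male (interval 1.36 to 2.05) and 2.79-fold in the DOCA-salt male (2.11 to 3.75), with a log2 fold change of 1.16 ± 0.52 that did not pass (adjusted p = 0.186). In fits without a treatment term, which mix treatment into the value, it stood at 0.54 without the DOCA-salt female and 1.91 without the baseline female. By share of UMIs it was at 0.775 in the baseline pair (0.632 to 0.955) and 1.34 in the DOCA-salt pair (1.01 to 1.80), and total-count scaling gave 0.01, beside a median of -1.20 for all tested miRNAs. miR-205-5p stood at 0.30 ± 0.52 with TMM (adjusted p = 0.849) and at -0.84 with total-count scaling (adjusted p = 0.160). Neither passed, where 5.21% of all tested miRNAs passed (3.19% as higher in males and 2.03% as lower). The erythrocyte list had 3 of 5 tested members higher in CSF males, and its part in the members' values was not tested.

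miRNAs of like profile were sought for each member over the 8 libraries, as the root mean square difference of mean-centred log2 TMM-scaled CPM, among 729 others with a mean of at least 20 UMIs. The nearest to miR-203-3p were miR-5120 (0.19), miR-7087-3p (0.29), miR-8101 (0.31), miR-7073-3p (0.39) and miR-320-5p (0.44), where the median difference was 1.22. The nearest to miR-205-5p were miR-6395 (0.23), miR-211-5p (0.29), miR-6943-3p (0.33), miR-3620-5p (0.34) and miR-6922-3p (0.36), where the median was 0.96. No listed epithelial miRNA was among these. The members differed from each other by 0.84, which put miR-205-5p at rank 133 from miR-203-3p and miR-203-3p at rank 270 from miR-205-5p.

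Reads per UMI of miR-203-3p were 3.84 to 8.39 in plasma and 1.17 to 1.77 in CSF, and those of miR-205-5p 4.33 to 8.72 and 1.32 to 1.76, close to the medians of their libraries (4.05 to 7.19 in plasma, 1.22 to 1.89 in CSF). With read counts in place of UMIs miR-203-3p stood at 1.42 between the fluids (adjusted p = 0.0174) and miR-205-5p at 0.23 (adjusted p = 0.673). The lowest count of a member was 25 UMIs, of miR-205-5p in the baseline male of plasma, the shallowest library.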

How the data were processed

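The measurement was small RNA sequencing of exosomes in 8 libraries. Per the labels' protocols, RNA came from the Qiagen miRNeasy Micro kit, the QIAseq miRNA kit added UMIs, and Cutadapt 2.7 removed adapters and poor bases. The submitters' design text gives single-end reads of 150 bp and Bowtie alignment to miRBase, piRNABank and Rfam. Per the submitters' processing notes, the tools were Bowtie 1.3.0 and edgeR, with the builds mm10 and GRCm38. The authors deposited UMI counts and read counts per miRNA, neither scaled, and CPM. Each deposited CPM was recomputed from the UMI counts and library totals, and 2 CSF rows differed, neither of them a member.

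The members, the lists and the tests were chosen with earlier results of these data known. The main test was edgeR 4.0.16 (R 4.3.3, quasi-likelihood) on UMI counts after filterByExpr and TMM, with Benjamini-Hochberg adjustment over all tested miRNAs and a threshold of 0.05. The SE is the log2 fold change over the square root of F. Fluid was the sole term between the fluids, which left 6 residual degrees of freedom. DOCA-salt and sex were tested within a fluid with both as terms (1 residual degree of freedom, spread largely borrowed across miRNAs), and the interaction in a fit of all libraries (2). Pair ratios carry exact conditional binomial intervals and no test, and ratios within a library had 0.5 added to each count for the permutation test. The fits were tested on simulated data. Named miRNAs were the members, other products of their loci, the epithelium list where the mean was at least 20 UMIs (miR-31-5p and miR-96-5p are under it, and miR-31-5p was named after its values were seen), and the 5 of most like profile per member. Alternatives were DESeq2's size factors and test (1.42.0), total-count scaling, no filter, read counts, the muscle list left out, other terms, and each library left out.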

Additional observations from a re-analysis of the deposited data

Results flagged for a closer look

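miR-203-3p was higher after DOCA-salt in both plasma pairs and lower in both CSF pairs. Such a pattern of signs was what the flag looked for. How many of all miRNAs have it was not counted, so it is not shown to be unusual. The interaction was -1.70 on the log2 scale and did not pass (edgeR adjusted p = 0.532). For miR-205-5p the interaction was -1.15 (adjusted p = 0.673). Its TMM ratios were above 1 in both plasma pairs and below 1 in both CSF pairs, but those of both plasma pairs and of the female CSF pair lay within counting error, and by share of UMIs its plasma pairs were at 1.02 and 0.999. The summed share of the 12 epithelial miRNAs was 1.13% in the DOCA-salt male of plasma, far from the other 3 plasma libraries. Of 24 groups of 4 libraries looked at, 1 had such a library, and chance gives about 1 in 20. The members contributed 161 and 48 of the 3453 epithelial UMIs in that library.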

How the results depend on the processing

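Over 13 results on the members and 166 alternatives, 160 kept the direction and side of the threshold. In the main tests only miR-203-3p between the fluids passed. The other results started on the side that few libraries make hard to leave, so this count is a weak check for them. With total-count scaling miR-203-3p turned to -0.044 and miR-205-5p to -1.14 between the fluids, and miR-205-5p to -0.84 between the sexes in CSF. Leaving out 1 library, the DOCA-salt difference of miR-205-5p in plasma ran from -0.36 (without the DOCA-salt female; -0.15 without the baseline male) to 0.71, and its sex difference in CSF from -0.28 (without the baseline male) to 0.95, none past the threshold. The replicate block per condition (libraries of the same sex and treatment as a pair) gave 1.62 for miR-203-3p (adjusted p = 0.00762) and 0.47 for miR-205-5p between the fluids and changed no call. miR-203-3p between the fluids ran from 1.37 to 2.04 without 1 library, always past the threshold. Counts over all miRNAs within a fluid were unstable: 15 for DOCA-salt in plasma (0 to 73 in 12 alternatives), 2 in CSF (0 to 4), 2 for sex in plasma (0 to 28), 54 in CSF (0 to 359), and 0 for the interaction (0 to 3). Libraries left out within a fluid were tested with the single term, and a lone sample was assumed to vary like the others. The libraries that remained were unbalanced for the other factor, so these values mix sex and treatment. For miR-205-5p in plasma the DOCA-salt pairs themselves stood at 0.29 in females and 0.13 in males on the log2 TMM scale. DESeq2 gave no adjusted p for miR-205-5p between the sexes in CSF.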
